A study of Mus musculus with 8 samples.

Results

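Endothelial cells of the mesentery were compared with endothelial cells of the epididymal adipose tissue in mice fed a high fat diet. Barcodes of 10x single-cell libraries were kept when they held at least 500 UMIs (unique molecular identifiers, each standing for 1 captured transcript), at least 300 genes and at most 10% mitochondrial UMIs. A kept barcode also had a UMI of at least 2 of the 4 endothelial genes Pecam1, Cdh5, Cldn5 and Egfl7, and no UMI of Ptprc (a leukocyte gene) or Adipoq (an adipocyte gene). The barcodes were thus chosen by measured UMIs of these 6 genes. The rule kept 7141 of the 11306 barcodes of the 4 high fat libraries and 15370 of the 27944 barcodes of the series. Run A gave 667 mesenteric and 913 adipose barcodes, and run B gave 2365 mesenteric and 3196 adipose barcodes.

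All mice were male ROSA26-eYFP+/+ Cdh5-CreERT2+ animals, in which tamoxifen switches on YFP in cells that use the endothelial Cdh5 promoter. Tamoxifen was fed to every group, chow controls included, over 2 weeks beginning at an age of 6 weeks. Feeding with chow (5.8% fat) or high fat food (60% fat) began at 8 weeks and lasted 12 to 13 weeks. Tissue of 6 mice was pooled for each library, YFP-positive cells were sorted, and the experiment was done again to give runs A and B, so each of the 4 groups has 2 libraries. A library is a pool. With the run as a block, the shift between runs that all groups share is taken out. The p-values here then measure how the group differences vary between the 2 runs, with the spread estimated over all 4 groups, chow included. Digestion was done in the presence of Actinomycin D, a transcription inhibitor, in every group.

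Endothelium lines every vessel, and its cells differ along the vessel: arteries carry Notch targets such as Hey1 and Gja5, capillaries of adipose tissue carry fatty acid handling genes, veins carry leukocyte receptors such as Selp and Ackr1, and lymphatic vessels are set by Prox1. Endothelium of different organs also carries position-dependent transcription factors. In the gut, Nkx2-3 is the homeobox factor known for endothelium of intestinal and lymphoid vessels, where it is needed for Madcam1, the receptor for lymphocytes that home to the gut. Glycam1 is a mucin of the high endothelial venules of lymph nodes and is bound by lymphocyte L-selectin.

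The promoters of these 3 genes are shown because the values below turn on them. Each run is the 250 bases before the start of the gene in RefSeq on GRCm38.p6, written 5′ to 3′ on the strand of the gene. Nkx2-3 is chr19:43612075-43612324 (plus strand), Madcam1 is chr10:79664309-79664558 (plus strand) and Glycam1 is chr15:103565082-103565331 (minus strand). Capitals mark the motif CCAAT, the motif GGGCGG (the core of a GC box) and the motif AAGTG on either strand, and AAGTG is the core that homeobox proteins of the NKX2 class bind.
Nkx2-3: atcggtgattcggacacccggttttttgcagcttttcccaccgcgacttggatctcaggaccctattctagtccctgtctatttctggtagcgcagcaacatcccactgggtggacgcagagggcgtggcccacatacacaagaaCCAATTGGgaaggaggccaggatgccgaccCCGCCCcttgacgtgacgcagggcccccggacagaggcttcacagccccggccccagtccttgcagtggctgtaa
Madcam1: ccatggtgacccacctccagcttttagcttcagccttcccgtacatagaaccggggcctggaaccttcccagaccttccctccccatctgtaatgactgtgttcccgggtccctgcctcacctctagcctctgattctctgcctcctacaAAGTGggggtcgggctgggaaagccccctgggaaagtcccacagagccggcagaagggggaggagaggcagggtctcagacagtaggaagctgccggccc
Glycam1: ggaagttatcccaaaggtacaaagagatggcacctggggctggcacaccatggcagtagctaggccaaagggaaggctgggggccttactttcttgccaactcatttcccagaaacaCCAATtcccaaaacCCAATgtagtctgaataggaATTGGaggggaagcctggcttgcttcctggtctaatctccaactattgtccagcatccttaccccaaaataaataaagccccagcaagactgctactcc

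The Nkx2-3 window held 2 overlapping CCAAT matches and 1 GGGCGG match, the Madcam1 window 1 AAGTG match, and the Glycam1 window 3 CCAAT matches. Of 32851 promoter windows of the same length, 40.7% held AAGTG, 33.8% CCAAT and 32.7% GGGCGG, so a match in a window is common.

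The label was checked first. Egfl7, a gene secreted by endothelium, had a UMI in 94.3% of the mesenteric and 85.0% of the adipose barcodes of run A, and in 94.3% and 91.3% of those of run B. These 4 genes chose the barcodes, so their levels describe the choice and were not tested. The median number of UMIs per barcode was 3119 in mesentery and 1714 in adipose tissue in run A, against 4419 and 3794 in run B. Libraries shared 0 to 10 barcodes, and 0 to 3 of those were endothelial. The Adipoq condition took out none of the marker-positive barcodes of mesentery and 0.758% of those of adipose tissue in run A, against 6.62% and 1.6% in run B. In the chow libraries, which enter every fit with all 8 libraries, it took out 0.08% and 0.497% in run A. In chow run B it took out 24.1% of those of mesentery and 45.0% of those of adipose tissue.

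Barcodes were then sorted into classes by gate genes. A barcode took the class of which it had a UMI in at least 2 gate genes, and more of them than of any other class. Lymphatic barcodes made up 57.4% of the mesenteric and 44.1% of the adipose endothelium in run A, but 4.61% and 5.01% in run B. Capillary barcodes made up 3.30% and 10.4% in run A and 53.7% and 56.1% in run B. The runs thus held different mixes of vessels, and the tissues within a run were closer to each other than the runs.

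**Figure D1:**
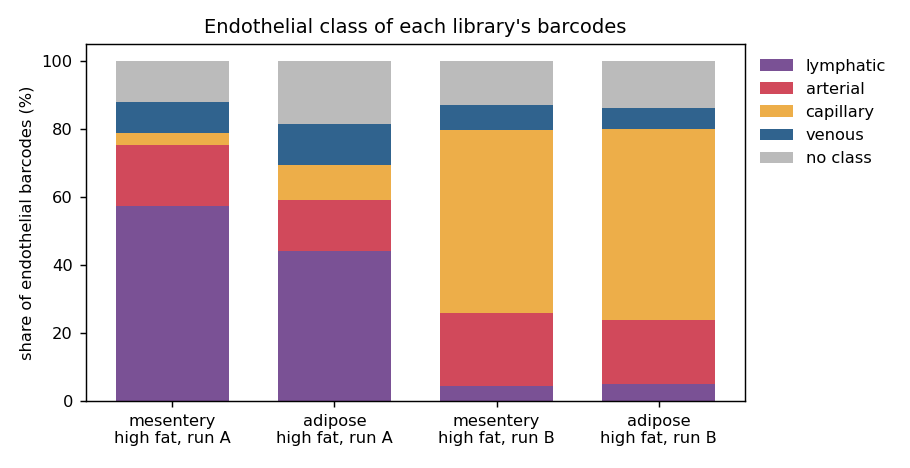
Share of endothelial barcodes (%, vertical axis) in each class for the 4 high fat libraries (horizontal axis), with barcodes of no class in grey. Lymphatic barcodes fill most of mesentery run A (57.4%), and capillary barcodes fill most of both run B libraries (53.7% and 56.1%).

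Arterial barcodes made up 18% and 14.9% in run A and 21.4% and 19.0% in run B, mesentery first. Venous barcodes made up 9.15% and 11.9% in run A and 7.36% and 6.20% in run B. With limma on logit shares, 0 of 4 classes passed the adjusted threshold and 0 of 4 had an unadjusted p under 0.05. The capillary class had the smallest p, with a logit difference of −0.652 ± 0.407 (SE, n = 2 libraries per group) and an adjusted p of 0.682.

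Summed over all endothelial barcodes, the counts of a library gave 13344 genes to test, and edgeR's quasi-likelihood test with the run as a block called 0 of them (0%). An unadjusted p under 0.05 was reached by 319 genes, 2.39% of those tested. DESeq2 called 18 genes, limma-voom 0, and edgeR on the 4 high fat libraries alone 53, of which 20 were higher and 33 lower in mesentery. Without the run as a block edgeR called 0, here and in each class below. In such sums a gene can be low because fewer cells use it or because each cell holds less of its RNA, and these cannot be told apart. Genes among the 5 with the smallest p in each direction are described first, none of which passed the adjusted threshold.

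Nkx2-3 had the smallest p. Its level in CPM (counts relative to the library total, scaled by TMM factors) was 71.7 in mesentery and 1.02 in adipose tissue in run A, and 41.0 and 0 in run B. The UMIs behind these levels were 178, 2, 564 and 0. Both mesenteric libraries were far above both adipose libraries, and the ratio of the summed tissues was 391 with a counting interval of 108 to 3240. The fitted log2 difference was 8.33 ± 0.64 (SE, n = 2 libraries per group), with an edgeR adjusted p of 0.111. On chow, mesentery had 214 and 119.8 CPM and adipose tissue 0 in both runs.

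Sfrp5, a secreted Wnt inhibitor, had 9.26 CPM in mesentery and 0 in adipose tissue in run A, and 12.0 and 0.198 in run B. Plac8, a small cysteine-rich protein, had 29.4 and 5.08 CPM in run A and 14.6 and 1.39 in run B. Nts, the neuropeptide neurotensin that lymphatic endothelium makes, had 1628 and 321 CPM in run A and 77.6 and 26.5 in run B. These 3 genes were higher in mesentery in both runs, with edgeR adjusted p of 0.441 each. H19, an imprinted long non-coding RNA, had 33.8 and 5.08 CPM in run A and 14.8 and 0.462 in run B (adjusted p 0.441), while both chow mesenteries were near 1 (1.07 and 0.468 CPM).

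On the adipose side, Cilp, a cartilage matrix protein, had no UMI in either mesenteric library and 42 and 33 in the adipose ones. Against the 3 counts that a value of 0 allows over the group, Cilp was at least 23.7-fold lower in mesentery. Neu1 (lysosomal sialidase), Timp1 (a metalloprotease inhibitor) and Slc39a8 (a zinc transporter) had log2 differences of −0.92 ± 0.18, −1.59 ± 0.35 and −1.39 ± 0.30. Their edgeR adjusted p were 0.645, 1 and 1.

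Marker genes of other cells moved with the tissues and runs, and their summed levels here and below are CPM of the raw library total, without TMM factors. The 12 fibroblast markers, all detected in every high fat library, summed to 325 CPM in mesentery and 1325 in adipose tissue in run A, and to 233 and 282 in run B. The 16 macrophage markers summed to 519 and 253 in run A and to 310 and 589 in run B. Without Cd74, a gene of antigen presentation, the other 15 summed to 254.8 and 196.3 in run A and to 133.6 and 448.6 in run B. The 8 erythroid markers summed to 13.1 and 112.7 in run A and to 508 and 1697 in run B. Their part in the adipose-side genes was not tested.

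The runs ranked genes differently: across 13361 genes, the tissue difference of run A and that of run B had a correlation of 0.248, as a description across genes, which are not independent.

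**Figure D2:**
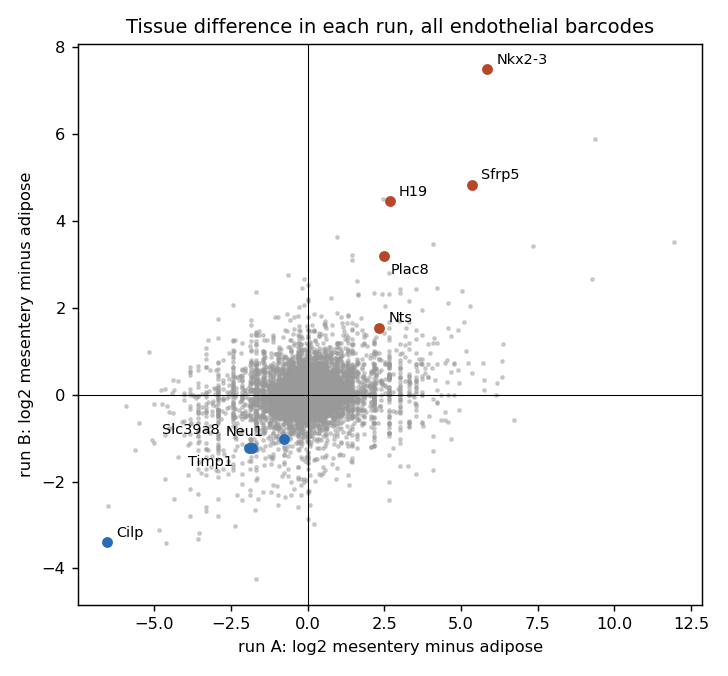
Log2 mesentery minus adipose in run A (horizontal axis) and in run B (vertical axis) for each gene over all endothelial barcodes on high fat diet, with the genes described in the text coloured. Nkx2-3 lies at 5.85 and 7.49, and Cilp at −6.55 and −3.39, both values being set by a prior count where a library had no UMI.

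Leaving out the lymphatic barcodes, edgeR called 2 of 12954 genes (0.0154%), Plac8 and Nkx2-3, both higher in mesentery, while 331 (2.56%) had an unadjusted p under 0.05. Plac8 had 67.0 CPM in mesentery and 7.71 in adipose tissue in run A, and 14.4 and 1.36 in run B, a log2 difference of 3.27 ± 0.28 (adjusted p 0.0139). Nkx2-3 had 176.8 and 1.93 CPM in run A and 42.0 and 0 in run B (adjusted p 0.0216). The Nkx2-3 call was lost without adipose run B (log2 6.24, adjusted p 0.112). The Plac8 call was lost without either adipose library, at log2 differences of 3.27 without run A and 3.29 without run B (adjusted p 0.0733 and 0.112). Data simulated for all endothelial barcodes gave false calls more often than the adjusted threshold of 0.05 allows, so the calls here and below are not held to that rate.

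Nkx2-3 was then followed from class to class. In venous barcodes it had a UMI in 44.3% of 61 barcodes of mesentery run A and 37.4% of 174 of run B, against 0.917% of 109 and 0% of 198 in adipose tissue, where 0 barcodes allow a share of up to 1.52%. In arterial barcodes the shares were 37.5% and 19.8% in mesentery and 0.735% and 0% in adipose tissue. In capillary barcodes they were 27.3% (of 22 barcodes) and 4.64% in mesentery and 0% in both adipose libraries, which allows up to 3.16% and 0.167%.

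Lymphatic barcodes stood apart, with Nkx2-3 UMIs in 1.04% and 1.83% of mesenteric barcodes and in 0% of adipose ones. Barcodes with Ptprc and no endothelial marker, which should lack the gene, gave 0% in all 4 libraries. They numbered 132 and 151 in mesentery and 28 and 390 in adipose tissue, in runs A and B. The mesenteric sets are too small to tell 0 from shares as low as those of lymphatic barcodes. The median number of UMIs per barcode in mesentery was 3278 and 5554 in the lymphatic class, 3039 and 5376.5 in the arterial class, and 2593 and 8843 in the barcodes with Ptprc. Intervals on these shares are exact binomial 95% intervals and cover counting error only.

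**Figure D3:**
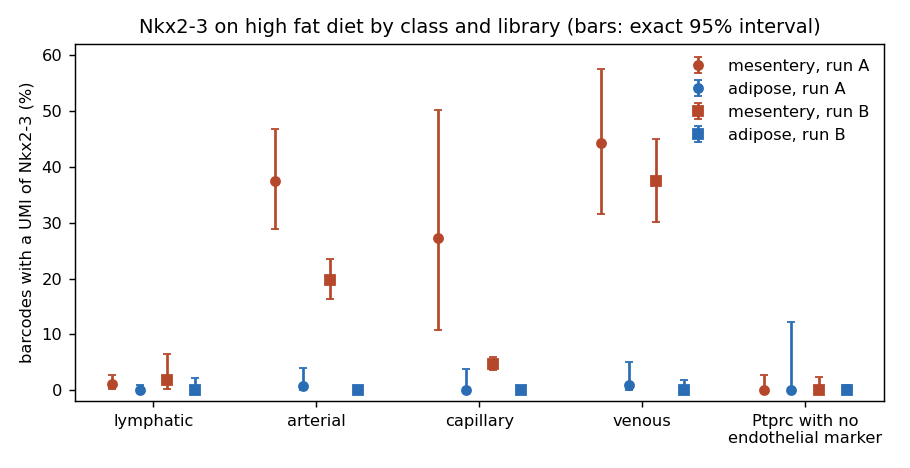
Share of barcodes with a UMI of Nkx2-3 (%, vertical axis) in each endothelial class and in Ptprc-positive barcodes without endothelial markers (horizontal axis), with exact 95% binomial intervals. Mesenteric arterial, capillary and venous barcodes lie between 4.64% and 44.3%, adipose barcodes lie below 1% and lymphatic barcodes of either tissue below 2%.

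With edgeR, Nkx2-3 rose in mesentery in the arterial class (log2 7.93 ± 0.63, adjusted p 6.58e-06), the capillary class (9.20 ± 1.22, adjusted p 2.68e-10) and the venous class (7.71 ± 0.61, adjusted p 1.83e-04), with n = 2 libraries per group in each. It was the only gene called in 3 classes. The arterial and venous calls held without any 1 of the 4 high fat libraries, and the capillary call was lost without mesentery run B (log2 10.69, adjusted p 0.14) or adipose run B (log2 10.63, adjusted p 0.384). DESeq2 kept the arterial and venous calls and gave the capillary one an adjusted p of 1.

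In venous barcodes edgeR called 18 of 9203 genes (0.196%), 8 higher (0.0869%) and 10 lower (0.109%) in mesentery, and DESeq2 called 21. An unadjusted p under 0.05 was reached by 460 genes (5%). Gucy1a1, a subunit of the nitric oxide receptor guanylate cyclase, had 151 CPM in mesentery and 9.46 in adipose tissue in run A, and 138 and 16.5 in run B (log2 3.31 ± 0.32, edgeR adjusted p 2.57e-04). Cytl1, a secreted cytokine-like protein, had 1273 and 126 CPM in run A and 718 and 137 in run B (2.86 ± 0.28, edgeR adjusted p 2.57e-04). Both genes had every mesenteric library above every adipose one, and the calls held without any 1 high fat library.

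Thbs1, the matrix glycoprotein thrombospondin-1 that restrains angiogenesis, had 415 and 94.6 CPM in run A and 277 and 58.7 in run B, with edgeR adjusted p 0.0116. A UMI of Thbs1 was present in 57.4% and 48.9% of mesenteric and 15.6% and 17.7% of adipose venous barcodes, so the gene was spread over many barcodes. Plac8 had 183 and 15.8 CPM in run A and 109 and 7.34 in run B (adjusted p 5.82e-04). Fxyd6, a regulator of the sodium pump, had 348 and 101 CPM in run A and 156 and 45.9 in run B (adjusted p 0.00809). The Thbs1 call was lost without adipose run A (log2 2.20, edgeR adjusted p 0.101) or adipose run B (2.18, 0.0882), and so was the Fxyd6 call (1.88 and 0.0537 without run A, 1.66 and 0.0874 without run B).

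The other called genes on this side rested on less. Cyp1b1, a cytochrome P450, had 9 and 20 UMIs in mesentery and 0 and 1 in adipose tissue, and its edgeR call was lost without either adipose library (adjusted p 0.121 and 0.0874). Cxcl1, a neutrophil chemokine, had 173 and 36 UMIs in run A and only 1 and 0 in run B, and its edgeR call was lost without mesentery run A (log2 0.59) or adipose run A (4.89), with an adjusted p of 1 in both.

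Among the genes lower in mesenteric veins, Cp, the copper carrier ceruloplasmin, had 52.8 CPM in mesentery and 508 in adipose tissue in run A, and 48.1 and 192.7 in run B (log2 −2.63 ± 0.36, edgeR adjusted p 0.00689). Ptn, the growth factor pleiotrophin, had 3.52 and 590 CPM in run A and 4.37 and 65.2 in run B. Mesentery was the low tissue in both runs for both genes. The Cp call held without any 1 high fat library, and the Ptn call was lost without mesentery run A (log2 −5.33, edgeR adjusted p 0.0662).

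Ptn had a UMI in 40.4% and 8.59% of adipose and in 1.64% and 1.15% of mesenteric venous barcodes. Cp had a UMI in 46.8% and 29.8% of adipose and in 13.1% and 13.8% of mesenteric ones. Slco1a4, an organic anion transporter, had 20 and 23 UMIs in adipose tissue and none in mesentery, at least 14.6-fold lower against the 3 counts that 0 allows over the group. Its edgeR call was lost without adipose run A (adjusted p 0.0537) or mesentery run B (0.0573).

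C4b, Dcn, Igf1, Igfbp5 and Cmah were also called on the lower side, and Igfbp5 rested on few barcodes, with 45 of 86 UMIs of adipose run A and 42 of 75 of run B in 1 barcode each. The C4b call was lost without either run A library (edgeR adjusted p 0.29 and 0.564), the Igfbp5 call without adipose run A (0.11) and the Cmah call without either run B library (0.117 and 0.287). Dcn, a fibroblast proteoglycan, had 143 and 45 UMIs in the adipose libraries and 3 and 1 in the mesenteric ones. The 12 fibroblast markers, Dcn among them, summed in venous barcodes to 68.5 CPM in mesentery and 768 in adipose tissue in run A, and to 43.2 and 132 in run B. Of these markers 8, 4, 3 and 3 were at 0 in mesentery A, adipose A, mesentery B and adipose B, and Pdgfra, a defining marker, was at 0 in mesentery A and in both run B libraries. Their part in the lower genes was not tested.

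**Figure D4:**
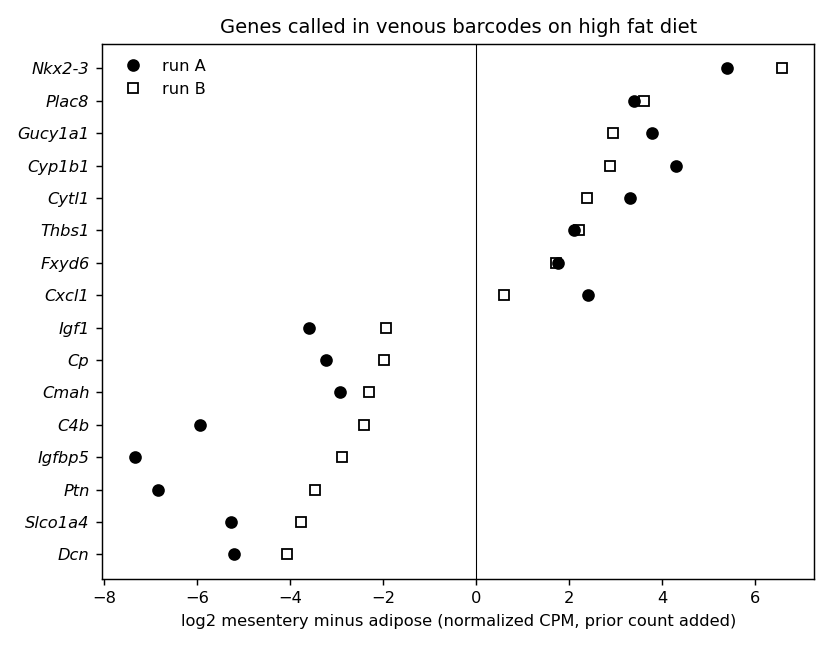
Log2 mesentery minus adipose (horizontal axis) in run A (filled circles) and run B (open squares) for the called genes reported here in venous barcodes (vertical axis). In each gene both runs lie on the same side of 0, and Cxcl1 in run B lies nearest to it at 0.60.

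Glycam1 and Madcam1 had more UMIs in mesenteric than in adipose veins in both runs and did not pass the adjusted threshold. Glycam1 in venous barcodes had 16420 CPM in mesentery and 3.15 in adipose tissue in run A, and 2671 and 337 in run B (log2 6.70 ± 1.33, edgeR adjusted p 0.101). In mesentery run A its 4669 UMIs came from 22 of 61 venous barcodes, but in mesentery run B 2896 of 3056 UMIs came from 1 barcode, and in adipose run B 315 of 367 did. Madcam1 in venous barcodes had 834 CPM in mesentery run A and 56.8 in mesentery run B, and none in either adipose library (adjusted p 0.188). It had a UMI in 21.3% and 6.90% of mesenteric venous barcodes, so it was more evenly spread in run B than Glycam1.

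Of 19 genes of antigen presentation (MHC class I, class II and their loading machinery), 18 could be tested in venous barcodes and 18 of 18 lay above 0, with a median log2 difference of 0.63 against 0.00 over all genes tested. EdgeR called 0 of them, DESeq2 0, and 7 had an unadjusted p under 0.05 on the higher side, against 2.53% of all genes. H2-Aa, a class II chain, had 179 CPM in mesentery and 59.9 in adipose tissue in run A, and 207 and 70.7 in run B. Cd74, the class II chaperone, had 806 and 180 CPM in run A and 712 and 319 in run B. H2-K1, a class I chain, had 3563 and 1728 CPM in run A and 2013 and 1724 in run B. The macrophage markers other than Cd74 summed to 84.0 and 55.7 CPM in run A and to 42.2 and 183 in run B, so they were higher in mesentery in run A and lower in run B. Adgre1 and Csf1r, which define macrophages, were at 0 in venous barcodes of both run A libraries, while in run B both were detected in mesentery and Adgre1 in adipose tissue. The 9 markers of B and plasma cells, which also carry class II, summed to 152.5 CPM in mesentery (49 UMIs) and 0 in adipose tissue in run A, and to 5.63 and 5.74 in run B, with Ms4a1 at 0 in all 4 libraries. Their part in the MHC values was not tested.

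In arterial barcodes edgeR called 13 of 10595 genes (0.123%), 6 higher (0.0566%) and 7 lower (0.0661%) in mesentery, and DESeq2 called 7. The unadjusted p was under 0.05 for 348 genes (3.28%). Vcam1, the adhesion receptor for leukocytes, had 615 CPM in mesentery and 187 in adipose tissue in run A, and 188 and 84.3 in run B (log2 1.38 ± 0.21, edgeR adjusted p 0.00799). A UMI of Vcam1 was present in 41.7% and 24.7% of mesenteric and 25.7% and 17.2% of adipose arterial barcodes. Mesentery was above adipose tissue within each run, but mesentery run B lay level with adipose run A, and the call was lost without adipose run A (log2 1.15, adjusted p 0.0668) or mesentery run B (1.46, 0.243).

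Pcolce2, an enhancer of collagen processing, had 63.9 and 13.1 CPM in run A and 17 and 2.53 in run B (edgeR adjusted p 0.00779). Ccn3, a matricellular protein, had 18 and 70 UMIs in mesentery and 1 and 4 in adipose tissue, and Gxylt2, a xylosyltransferase that modifies Notch, had 8 and 50 against 2 and 8. Cxcl10, an interferon-induced chemokine, had 176 UMIs in mesentery run B, of which 165 lay in 1 barcode, and with each gene's top barcode left out of every library its log2 difference was 2.48, against 3.57 with all barcodes, and was not called (edgeR adjusted p 1). The calls of Pcolce2, Ccn3, Gxylt2 and Cxcl10 were lost without either run B library, with edgeR adjusted p of 0.243 to 0.844 at log2 differences of 1.98 to 4.34.

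Lrg1, a glycoprotein that promotes angiogenesis through TGF-beta signalling, fell in mesentery in 2 classes. In arterial barcodes it had 93.2 CPM in mesentery and 423 in adipose tissue in run A, and 56.0 and 161 in run B (log2 −1.86 ± 0.29, edgeR adjusted p 0.00984). In capillary barcodes it had 0 and 260 CPM in run A and 50.9 and 216 in run B (−2.05 ± 0.33, adjusted p 1.47e-06). Lrg1 is also 1 of the venous gate genes, so barcodes with Lrg1 were more readily placed in the venous class and its levels in the other classes are affected by the gates. The arterial call was lost without mesentery run B (log2 −1.77, edgeR adjusted p 0.738), and the capillary call without mesentery run B (adjusted p 0.932) or adipose run B (−0.73, 0.962).

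Ccn2, a matricellular target of mechanical signalling, had 24.0 and 125 CPM in run A and 29.6 and 121 in run B, but 236 of the 431 UMIs of adipose run B lay in 1 barcode. With each gene's top barcode left out of every library its log2 difference was −1.48, against −2.24 with all barcodes, and was not called (edgeR adjusted p 0.63), and the call was also lost without mesentery run B (−1.76, 0.915). Tagln, a smooth muscle gene, had 79.9 and 190 CPM in run A and 165 and 475 in run B, and the 12 mural markers that hold it summed to 307 and 259 CPM in run A and to 1387 and 2055 in run B. The haemoglobin genes Hba-a1, Hba-a2 and Hbb-bs were called as lower. Hbb-bs had 5166 UMIs in adipose run B, of which 3813 lay in 1 barcode, and 4, 7 and 262 UMIs in mesentery A, adipose A and mesentery B. Hpgd, the prostaglandin-degrading enzyme, had 60 UMIs in adipose run B and 0 to 2 in the other 3 libraries. The calls of Tagln and of the haemoglobin genes and Hpgd were lost or reversed without either run B library.

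In lymphatic barcodes edgeR called 12 of 9225 genes (0.13%), 9 higher (0.0976%) and 3 lower (0.0325%) in mesentery, and DESeq2 called 21. In all, 489 genes (5.3%) had an unadjusted p under 0.05. Marco, a scavenger receptor of lymph node sinus cells and macrophages, had 258 CPM in mesentery run A and 247 in mesentery run B and none in adipose tissue. Against the 3 counts that 0 allows over the group, Marco was at least 145-fold higher in mesentery (edgeR adjusted p 3.16e-05). Its UMIs came from 10 of 383 mesenteric lymphatic barcodes in run A and from 2 of 109 in run B.

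Glycam1 in lymphatic barcodes had 887 UMIs in 48 barcodes of mesentery run A and 546 in 1 barcode of mesentery run B, against 0 and 1 in adipose tissue. Ltbp2, which binds the matrix and latent TGF-beta complexes, had 66 and 14 UMIs in mesentery, Cyp1b1 had 85 and 34, and the growth factor Bmp2 had 112 and 14, against 0 or 1 in each adipose library. Barcodes with UMIs of at least 2 of Marco, Glycam1, Ltbp2, Cyp1b1 and Bmp2 numbered 22 in mesentery run A, 3 in mesentery run B and 0 in adipose tissue. Barcodes with any of the 5 genes numbered 64 and 6 in mesentery and 2 and 1 in adipose tissue, so most of the 64 held 1 of the genes only. On chow at least 2 of them were found in 65 of 347 barcodes in run A and 206 of 428 in run B in mesentery, and 0 in adipose tissue.

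Other lymphatic calls included 2 imprinted genes. H19 had 58.2 CPM in mesentery and 11.2 in adipose tissue in run A, and 275 and 8.61 in run B (edgeR adjusted p 0.0111). Igf2, the growth factor next to H19 in the imprinted cluster, had 1 and 0 UMIs in run A and 148 and 8 in run B, so its call rests on run B.

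Slco2a1, a prostaglandin transporter, had 22.4 CPM in mesentery and 77.1 in adipose tissue in run A, and 59.3 and 176 in run B (edgeR adjusted p 0.0254). Ly6c1, a surface protein of endothelium and monocytes, had 17.5 and 58.1 CPM in run A and 14.8 and 64.0 in run B (adjusted p 0.0262). Npnt, a matrix ligand of integrins, had 0 and 1 UMIs in mesentery and 26 and 28 in adipose tissue. Each was lower in mesentery in both runs. When the barcode with most UMIs of each gene was left out of each library, edgeR called 0 lymphatic genes, with adjusted p of 0.0779 to 0.548 for the called genes reported here. Their log2 differences stayed large in that setting: 9.79 for Marco, 10.41 for Glycam1, 8.00 for Ltbp2, 8.53 for Cyp1b1, 8.39 for Bmp2, 4.11 for Cxcl10, 4.22 for H19, 4.48 for Igf2, −7.25 for Npnt, −2.44 for Ly6c1 and −1.79 for Slco2a1. When a class needed at least 3 gate genes, the Glycam1 call was lost and the Marco call held. Leaving out 1 library, the Marco and Glycam1 calls held, Ly6c1 was lost without any 1 of the 4 high fat libraries (edgeR adjusted p 0.0689 to 0.278), and the others were lost without at least adipose run B (0.0533 to 1).

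Of 26 tested genes of leukocyte adhesion and chemokines, 14 had an unadjusted p under 0.05 on the higher side in lymphatic barcodes, against 2.98% of all genes, with a median log2 difference of 1.11 against 0.00. On the lower side 3 of the 26 had an unadjusted p under 0.05, against 214 of all 9225 genes. Glycam1 and Cxcl10 were the 2 called by edgeR. Il33, an alarmin, had 73.6 CPM in mesentery and 14.5 in adipose tissue in run A, and 39.1 and 12.3 in run B (adjusted p 0.185). Csf1, the macrophage growth factor, had 53.3 and 11.2 CPM in run A and 37.7 and 9.84 in run B (adjusted p 0.117). Cxcl12, a chemokine of stroma and endothelium, went the other way, with 19.6 and 77.1 CPM in run A and 55.2 and 106 in run B (adjusted p 0.189). Macrophage markers other than Cd74 summed in lymphatic barcodes to 314 and 302 CPM in run A and to 221 and 304 in run B.

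In capillary barcodes edgeR called 24 of 10256 genes (0.234%), 15 higher (0.146%) and 9 lower (0.0878%) in mesentery, while DESeq2 called 0. The unadjusted edgeR p was under 0.05 for 180 genes (1.76%). Mesentery run A gave only 22 capillary barcodes with 65549 UMIs in all, so single barcodes weigh heavily in its values. Nts had 45 UMIs in mesentery run A, all in 1 barcode, and Chga had 18, also all in 1. Cytl1, Cyp26b1 and Peg3 had no UMI in mesentery run A and were called from run B alone, and the runs had opposite signs for these and for Nts.

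Other capillary genes had the same direction in both runs. Enpp2, which makes lysophosphatidic acid, had 548 CPM in mesentery and 43.3 in adipose tissue in run A, and 38.2 and 13.0 in run B (log2 2.33 ± 0.36, edgeR adjusted p 3.89e-07). Mgp, an inhibitor of calcification and BMP signalling, had 14.0 and 303 CPM in run A and 24.9 and 66.9 in run B (−1.72 ± 0.34, edgeR adjusted p 3.95e-04). Both calls were lost without mesentery run A, the library of 22 barcodes, at log2 differences of 1.61 for Enpp2 (adjusted p 0.0849) and −1.34 for Mgp (0.506), and Mgp was also lost without either run B library (0.932 and 0.521). Foxf1, a forkhead factor of visceral mesenchyme and endothelium, had 2 and 2 UMIs in run A and 124 and 9 in run B, in 108 and 8 barcodes. Gm10076, a gene model with ribosomal sequence, had 4840 UMIs in mesentery run B and 1844 in adipose run B but at most 14 in either run A library. The runs carry different software versions in their headers, and what this does to Gm10076 was not tested.

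Lgals3, Cxcl9, Tyrobp and Lyz2 were called as lower in mesenteric capillaries. They had no UMI in mesentery run A, 2 to 67 in adipose run A, 114 to 1728 in mesentery run B and 678 to 3372 in adipose run B. Over the alternatives, the calls were kept in 3 of 8 for Lgals3, 2 of 8 for Cxcl9, 3 of 7 for Tyrobp and 1 of 7 for Lyz2. Lyz2 and Tyrobp are macrophage markers, and the 16 macrophage markers summed to 30.5 and 170 CPM in run A and to 265 and 688 in run B, with 14 of them at 0 in mesentery run A, Adgre1 and Csf1r included. Their part in the call of Lgals3 and of the interferon-induced chemokine Cxcl9 was not tested. Glycam1 was also called by edgeR in capillary barcodes (log2 7.57, adjusted p 8.18e-17). In arterial barcodes its log2 difference was 6.89, and it was not called. Further capillary calls were Hspa1a (1.78, 8.33e-05), Hspa1b (1.45, 0.0226), Hist1h2ap (2.96, 8.26e-04), AU021092 (2.41, 0.0314), Dcn (−2.86, 1.73e-04) and Mt1 (−1.48, 0.0207). With each gene's top barcode left out, Hspa1a stayed called, and Glycam1 and the others did not. Over all alternatives Hspa1a was called in only 2 of 8, Hspa1b in 1 of 8 and Mt1 in 0 of 8. Glycam1 was called in 4 of 8, Dcn in 3 of 8, AU021092 in 2 of 8 and Hist1h2ap in 3 of 7.

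Of 40 tested lipid handling genes in capillary barcodes, 9 had an unadjusted p under 0.05 on the lower side in mesentery, against 1.03% of all genes, and the median log2 difference was −0.28 against −0.03. Fabp5, a fatty acid carrier, was the 1 called gene, with 1011 CPM in mesentery and 3403 in adipose tissue in run A, and 3604 and 4752 in run B (log2 −1.13 ± 0.29, edgeR adjusted p 0.0329). Fabp4, its close relative, had 14130 and 36760 CPM in run A and 59260 and 70370 in run B (adjusted p 0.526). Lpl, the lipase that frees fatty acids at the vessel wall, had 98.3 and 503 CPM in run A and 569 and 739 in run B (adjusted p 0.189).

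The differences of these lipid genes were larger in run A, with its 22 mesenteric barcodes, than in run B: Fabp5 differed by −1.75 and −0.40, and Lpl by −2.35 and −0.38 on the log2 scale. Without mesentery run A the Fabp5 difference was −0.96. The Fabp5 call was kept in 0 of 8 alternatives, at log2 differences of −1.72 to −0.33. The 15 adipocyte markers, some of them lipid genes, summed in capillary barcodes to 61.0 CPM in mesentery (4 UMIs) and 155 in adipose tissue in run A, and to 264 and 154 in run B, with 12 of them at 0 in mesentery run A, 4 in adipose run A and none in run B. Their part in the lipid values was not tested.

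**Figure D5:**
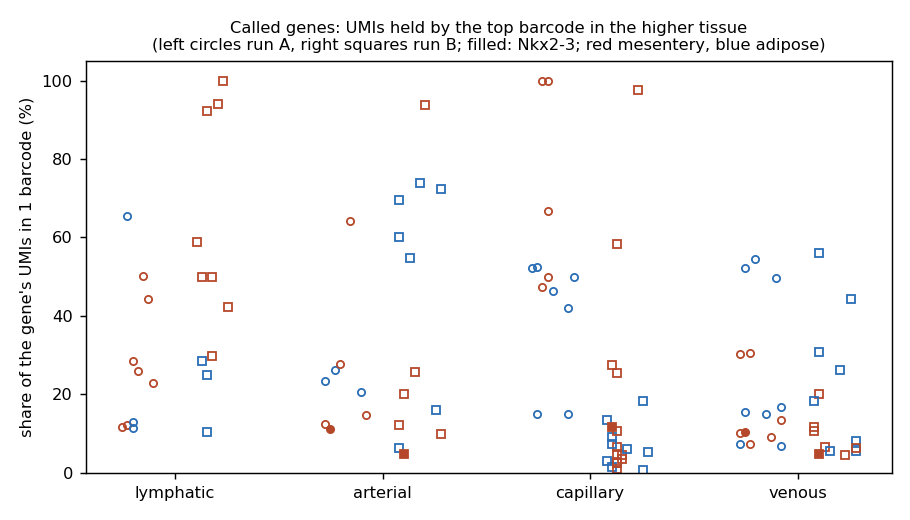
Share of the UMIs of a called gene reported here held by the barcode with most of them (%, vertical axis), in the tissue where the gene is higher, by class (horizontal axis), with run A as circles on the left and run B as squares on the right. Only libraries with at least 10 UMIs of the gene are drawn, Nkx2-3 (filled) lies at 11.7% or below in each of them, and some lymphatic, arterial and capillary genes lie above 90%.

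Whether the tissue difference on high fat diet differed from the one on chow was tested as an interaction. Over all endothelial barcodes edgeR called 0 of 13344 genes (0%) and DESeq2 23, and the unadjusted edgeR p was below 0.05 for 573 (4.29%). In venous barcodes edgeR called 0 of 9203 (0%) and DESeq2 0, and 192 (2.09%) were below 0.05 unadjusted. EdgeR called 49 of 9225 (0.531%) in lymphatic barcodes, and 855 (9.27%) had an unadjusted p under 0.05. Of the 49, the mesentery minus adipose difference was higher on high fat diet than on chow in 20 (0.217%) and lower in 29 (0.314%). In arterial barcodes edgeR called 6 of 10595 (0.0566%), with the difference higher in 1 (0.00944%) and lower in 5 (0.0472%), and 384 (3.62%) were below 0.05 unadjusted. In capillary barcodes it called 12 of 10256 (0.117%), all with a lower difference, and 176 (1.72%) were below 0.05 unadjusted. For Nkx2-3 in venous barcodes the interaction was −3.72 ± 2.41 on the log2 scale (adjusted p 1), and mesenteric veins on chow had 289 and 304 CPM with none in adipose tissue. A difference between diets in the size of the Nkx2-3 gap was thus not detectable here, and the adipose zeros leave its size loosely fixed.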

How the data were processed

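Single-cell RNA was counted in 8 libraries (mesentery and epididymal adipose tissue, chow and high fat diet, runs A and B). The authors deposited raw UMI counts per gene and barcode from 10x 3' v3.1 libraries; per the file headers the software version was 3.0.2 in run A and 5.0.0 in run B, and per the submitters' processing notes the build was mm10. How cells were called before deposit is not stated in the labels or headers. The 30406 gene identifiers common to both runs (31053 in run A, 32285 in run B) were used, and 30 symbols have more than 1 identifier.

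The barcode rule, the members and all gene lists were chosen with earlier results of these data known. Scrublet scores served only in an alternative, so doublets were otherwise kept. Barcodes of 4 classes were set by gate genes: Prox1, Lyve1, Mmrn1, Reln, Flt4 and Ccl21a (lymphatic), Gja4, Gja5, Sema3g, Sox17, Hey1, Bmx, Fbln5 and Efnb2 (arterial), Rgcc, Car4, Cd300lg, Btnl9 and Kdr (capillary), and Ackr1, Selp, Sele, Lrg1, Ephb4 and Adgrg6 (venous). Gate genes were not tested in their own class, nor were the 6 genes of the barcode rule or mitochondrial genes.

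Counts were summed per library and tested with edgeR 4.0.16 (quasi-likelihood, TMM, filterByExpr, group and run as terms, all 8 libraries, R 4.3.3). Benjamini-Hochberg adjustment covered all genes tested, with a threshold of 0.05, and a standard error (SE) is the absolute log2 difference over the square root of F. A class needed 20 barcodes in a library. Class shares were tested with limma 3.58.1 on logit shares. DESeq2 1.42.0 and other settings were alternatives, and the scripts were tested on simulated data, where false calls were more frequent than the threshold allows. The run marks a repeat of the experiment per the labels, and deviations from the group means correlated between libraries of a run at 0.581 to 0.752. Depth per barcode is in the report, and low totals limit the precision.

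Genes were named as those called with the same direction in both runs, at least 10 counts in the higher tissue in each run and the largest change, otherwise by smallest p. In classes with 24 or fewer calls the remaining called genes were also described, and with Madcam1, H2-Aa, Lpl, Il33, Csf1 and Cxcl12 they were chosen after their values were seen. The class interactions, and leaving out the top barcode of each gene, were added after seeing the data. Some genes that passed these rules are counted but not reported by name here. Of 36 gene lists, antigen presentation, leukocyte adhesion and lipid handling were each described in 1 class only. Their median log2 differences in lymphatic, arterial and capillary barcodes were −0.09, 0.24 and 0.04 for antigen presentation. For leukocyte adhesion they were 0.08, −0.24 and 0.08 in arterial, capillary and venous barcodes. For lipid handling they were 0.09, −0.20 and 0.12 in lymphatic, arterial and venous barcodes.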

Additional observations from a re-analysis of the deposited data

Results flagged for a closer look

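The difference between tissues on high fat diet was set against the one on chow in each class, a test added after the class results were seen. In lymphatic barcodes edgeR called 49 genes, and DESeq2 called 66, of which 34 were shared. Of the 49, the mesentery minus adipose difference was higher on high fat diet than on chow in 20 and lower in 29. Without any 1 library edgeR called between 0 and 355, and 6 once each gene's top barcode was left out (Cd55, H2-Q6, H2-Q7, Lifr, Tnc and Tspan7).

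Tnc (tenascin-C, a matrix protein) had an interaction of −3.83 on the log2 scale (edgeR adjusted p 0.0274). It had 28.0 CPM in mesentery and 12.3 in adipose tissue in run A and 43.1 and 17.2 in run B on high fat diet, but 208 and 9.15 in run A and 452 and 8.93 in run B on chow. Tspan7, a tetraspanin, differed by −3.71 (adjusted p 0.0324), with 384 and 551 CPM in the chow mesenteries and 50.5 and 28.3 in the high fat ones. Csf1 differed by −3.47 (adjusted p 0.0498), with 298 and 576 CPM in the chow mesenteries and 53.3 and 37.7 in the high fat ones. In these 3 genes the 2 chow mesenteries were above every other library. Mesenteric lymphatic barcodes with at least 2 of Marco, Glycam1, Ltbp2, Cyp1b1 and Bmp2 also differed by diet. They were 65 of 347 in run A and 206 of 428 in run B on chow, against 22 of 383 and 3 of 109 on high fat diet. Whether these barcodes carry the interactions given here was not tested.

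Ctss (cathepsin S, a protease of antigen presenting cells) differed by −8.72 (edgeR adjusted p 0.0395) and had no UMI in adipose tissue on chow, so the size depends on the prior count. Fads1, a fatty acid desaturase, differed by −4.00 (adjusted p 0.0498). In the other direction were Neo1, a netrin receptor, at 5.26 (adjusted p 0.0395), Top2a, a topoisomerase of cycling cells, at 5.16 (0.0354), Gm525 at 4.42 (0.0498), 3300005D01Rik at 3.85 (0.0395) and Gm19705 at 3.41 (0.0461). DESeq2 called Tnc, Tspan7 and Csf1, gave Neo1 an adjusted p of 0.362, and gave no adjusted p for the other 6 of these genes.

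In capillary barcodes edgeR called 12 genes, while DESeq2 called 0. In all 12 the mesentery minus adipose difference was lower on high fat diet than on chow. Without any 1 library edgeR called 0 to 25, and 7 once each gene's top barcode was left out. Vcam1 differed by −3.26 (edgeR adjusted p 7.31e-05), with 430 CPM in mesentery and 54.2 in adipose tissue in run A and 46.5 and 8.62 in run B on chow, against 0 and 59.5 in run A and 32.6 and 37.8 in run B on high fat diet. Clu (clusterin) differed by −2.98 (adjusted p 5.48e-06), Fam167b by −2.90 (adjusted p 4.05e-04), H2-Ab1 (a class II chain) by −4.19 (adjusted p 0.00163) and Clca3a1 by −4.69 (adjusted p 0.00681). The 22 capillary barcodes of mesentery run A on high fat diet bear on each of these. Over 11 alternatives, among them the fit without that library, each of these differences stayed below 0. They ran from −14.27 to −1.67 for Vcam1, −3.78 to −1.43 for Clu and −4.4 to −1.51 for Fam167b. For H2-Ab1 they ran from −9.88 to −1.62 and for Clca3a1 from −12.62 to −2.66, so their sizes are loosely fixed.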

How the results depend on the processing

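The 2 libraries per group and mixes of vessels that differ by run limit every count of calls, and the cause of the changes below was not tested. Of 99 gene results under 982 alternatives, 971 kept their direction, of which 574 kept their side of the threshold, 351 lost the call and 46 gained one, and 11 reversed. A further 9 DESeq2 values had no adjusted p and are not counted. Without the replicate block edgeR called 0 genes in each comparison, and 80 of the 99 gene results lost their call.

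Over all endothelial barcodes (0 called) the count was 18 by DESeq2, 1 without the filter, 2 with 3 markers, 1 at 5% mitochondrial UMIs, 53 with the 4 high fat libraries only, and 0 to 27 without 1 library (27 without mesentery chow A, 20 without mesentery chow B, 17 without mesentery high fat B). Its interaction with diet (0 called) gave 23 by DESeq2 and 0 to 44 without 1 library. DESeq2 gave 12 against 2 in non-lymphatic, 21 against 12 in lymphatic, 7 against 13 in arterial and 0 against 24 in capillary barcodes, and for the interaction 1 against 6 in arterial and 0 against 12 in capillary barcodes. Without each gene's top barcode the counts were 0 lymphatic and 10 capillary, and for the interaction 6 lymphatic, 1 arterial and 7 capillary. Of the 10 arterial, 10 capillary, 15 venous and 3 non-lymphatic calls left then, 7, 8, 14 and 2 were among those called before. With 3 gate genes 23 arterial genes were called. Without 1 library the counts ran from 0 to 30 (non-lymphatic), 5 to 64 (lymphatic), 3 to 26 (arterial), 3 to 19 (capillary) and 12 to 78 (venous, 78 without mesentery high fat B and 41 without adipose high fat B), and for the interaction from 0 to 355 (lymphatic), 0 to 60 (arterial), 0 to 25 (capillary) and 0 to 6 (venous).

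Logit share differences without 1 library ran from −0.348 to 0.797 (lymphatic), 0.13 to 0.247 (arterial), −1.09 to −0.218 (capillary) and −0.428 to 0.318 (venous), and the lymphatic and venous ones changed sign without mesentery high fat A. Log2 differences reversed in 7 genes, with ranges without 1 high fat library of −8.31 to 0.20 (arterial Hpgd), −4.95 to 1.64 (arterial Hba-a2), −3.89 to 8.76 (capillary Cytl1), −5.71 to 2.43 (Cyp26b1), −0.23 to 2.24 (Gm10076), −7.29 to 3.72 (Peg3) and −1.56 to 3.53 (Nts). The first 5 reversed without mesentery high fat B, Hba-a2 (0.47), Cyp26b1 (−0.33) and Peg3 without adipose high fat B, and Nts without mesentery high fat A, with 3 gate genes (−4.14) and without its top barcode (−4.22).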
